A study of Saccharomyces cerevisiae with 6 samples.

Results

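The genes of the large ribosomal subunit of Saccharomyces cerevisiae were chosen by name. They were every gene called RPL followed by a number, with or without a final A or B, and the stalk genes RPP0, RPP1A, RPP1B, RPP2A and RPP2B. The rule found 81 of the 5113 named genes, and all 81 were among the 5011 genes tested. They comprised 35 pairs of an A and a B copy and 11 genes with a single copy.

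The 60S subunit of the ribosome holds the centre where peptide bonds form, the tunnel through which the new chain leaves and a flexible stalk that recruits translation factors. Yeast carries many of its ribosomal protein genes in duplicate, and most copies encode proteins that are identical or nearly so. The lowest protein identities among the pairs here are in RPP1 (61.3%), RPP2 (61.8%), RPL22 (84.4%) and RPL16 (89.95%). These genes are among the most transcribed in growing cells and are known to be controlled together by nutrients, through promoters bound by Rap1, Fhl1 and Ifh1.

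Polyadenylated RNA was sequenced from wild-type BY4741, a laboratory strain derived from S288C. In NoSucrose, cells grown in 2% sucrose to an OD600 of 0.45 were filtered and moved for 16 min to medium with 2% glycerol and 2% ethanol (3 libraries). In Sucrose, cells were harvested straight from the 2% sucrose medium at the same density (3 libraries). NoSucrose therefore differed from Sucrose in filtration and transfer as well as in carbon source, and those parts cannot be told apart. The methods describe biological triplicates.

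Library totals lay between 25106494 and 33651822 estimated counts. Among the genes that BY4741 lacks, URA3, LEU2 and MET17 had 0 counts in every library. HIS3, which the strain is also known to lack in functional form, had 1164 to 3414 counts. The MATa genes MFA1, MFA2, STE2 and BAR1 each had 1039 or more counts in every library, against 5 to 18 for MF(ALPHA)1 and 0 to 5 for MF(ALPHA)2, and 174 to 264 for STE3, all 3 MATalpha markers.

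The sequences below show what tells copies apart and what the stalk genes share. They are the last 30 coding bases of each gene, stop codon included, from the R64 reference. For the A and B copies, capitals mark bases that differ between the copies. RPL15 and RPL22 are the pairs whose copies differed most in response, and in RPL35 a single base of this stretch separates the copies.
RPL15A: actTtgtcCttGtggagAtaCagaaaatAa
RPL15B: actCtgtcGttAtggagGtaTagaaaatGa
RPL22A: gaAgAAgacgaagaagaAgaCgaAgaataa
RPL22B: gaTgCTgacgaagaagaGgaTgaCgaataa
RPL35A: ccacaaagaaagtacgctatTaaggcttaa
RPL35B: ccacaaagaaagtacgctatCaaggcttaa

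These stretches lie at XII:201976-202005 (RPL15A, minus strand), XIII:509734-509763 (RPL15B, minus), XII:263919-263948 (RPL22A, plus), VI:64243-64272 (RPL22B, minus), IV:118488-118517 (RPL35A, plus) and IV:218338-218367 (RPL35B, plus). All are coding exon sequence.

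The 5 stalk genes end alike. Capitals here mark the 25 of 30 bases that all 5 share. This end encodes the tail by which the stalk proteins are known to touch elongation factors.
RPP0: GAcGACATGGGTTTcGGTTTATTcGAtTAa
RPP1A: GAcGACATGGGTTTcGGTTTATTtGAtTAg
RPP1B: GAcGACATGGGTTTcGGTTTATTcGAcTAa
RPP2A: GAcGACATGGGTTTcGGTTTATTcGAcTAa
RPP2B: GAtGACATGGGTTTtGGTTTATTcGAtTAa

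They lie at XII:806796-806825 (RPP0, plus), IV:309802-309831 (RPP1A, minus), IV:230498-230527 (RPP1B, plus), XV:254588-254617 (RPP2A, plus) and IV:1239795-1239824 (RPP2B, plus).

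Large subunit transcripts were lower in NoSucrose almost throughout. In the NoSucrose libraries they took 7.59%, 8.22% and 8.67% of all counts (mean 8.16% ± 0.54, SD, n = 3), against 12.2%, 12.3% and 12.5% in the Sucrose libraries (mean 12.3% ± 0.18, SD, n = 3). The groups did not overlap. The median log2 fold change of the 81 genes, NoSucrose over Sucrose, was -0.83 with an interquartile range of -0.93 to -0.64, and the median of all tested genes was 0.03. Fold changes are relative to the other transcripts of the library, since the amount of RNA per cell was not measured.

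By edgeR's quasi-likelihood test, 80 of the 81 were lower at an adjusted p below 0.05, where 39.8% of all tested genes were, and 1 was higher, where 42.2% of all tested genes were. In the same 80 genes every NoSucrose library lay below every Sucrose library, which held for 41.1% of all tested genes, and the 1 higher gene did not overlap the other way, as for 43.7%. With the further requirement of a fold change above 2, 12 large subunit genes were called lower, against 6.03% of all tested genes, and 0 were called higher, against 12.7% (18.7% of all tested genes passed in either direction). DESeq2 also called 0 members higher. Most members moved by a similar amount, with 61 of 81 between -1 and -0.5 on the log2 scale and standard errors of 0.044 to 0.091. The 56 small subunit genes had a median log2 fold change of -0.89, with 15 called lower and 0 higher. The ratio of large to small subunit counts was 1.53 ± 0.010 in NoSucrose and 1.42 ± 0.0080 in Sucrose (SD, n = 3 each).

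**Figure D1:**
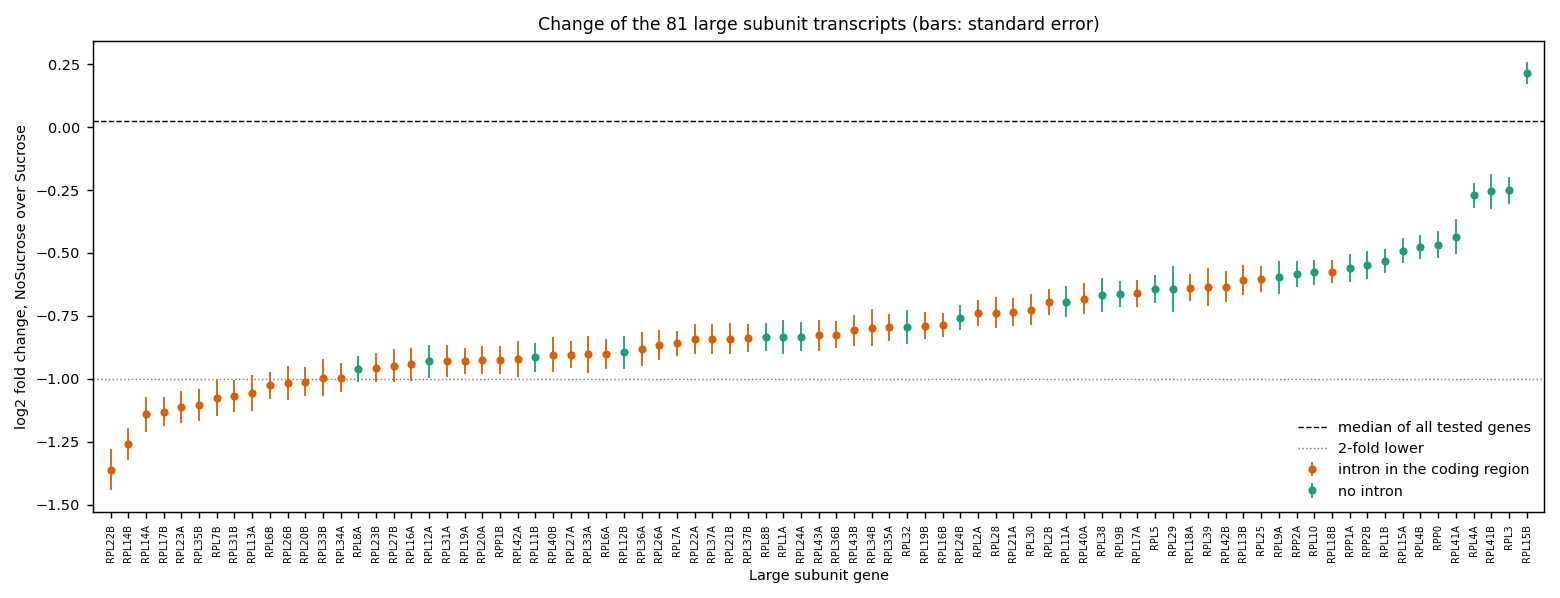
Log2 fold change (NoSucrose over Sucrose, vertical axis) of each of the 81 large subunit genes with its standard error, ordered from lowest to highest and coloured by whether the coding region holds an intron. In all, 80 points lie between RPL22B at -1.36 and RPL3 at -0.25, and RPL15B at 0.21 stands alone above the dashed median of all tested genes.

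The libraries of NoSucrose varied together. All 81 members were lowest in NoSucrose replicate 1 among the NoSucrose libraries, and their median log2 values relative to the Sucrose mean were -0.93, -0.79 and -0.75 in NoSucrose replicates 1 to 3. The median coefficient of variation over replicates was 6.28% in NoSucrose and 2.55% in Sucrose. Without NoSucrose replicate 1 the median log2 fold change was -0.78 and 8 members passed both thresholds. The part of this library in the results was not otherwise tested.

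Levels between genes were compared as CPM (counts scaled by library size and normalization factor) per kilobase of coding sequence. The members' median was 1952 CPM per kilobase in NoSucrose and 3467 in Sucrose. Of the 100 genes highest on this scale among 4988, 38 were large subunit genes in NoSucrose and 48 in Sucrose. The most abundant members in Sucrose were RPL10 (4254 CPM per kilobase in NoSucrose, 6347 in Sucrose), RPL28 (3711 and 6188) and RPL36B (3205 and 5675). The least abundant were RPL15B (110.2 in NoSucrose, 94.96 in Sucrose), RPL22B (148.1 and 380.6) and RPL7B (242.3 and 510.8).

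The largest falls were in RPL22B, the minor copy of a non-essential protein. RPL22B had 49.3, 59.2 and 55.4 CPM in NoSucrose, against 152.6, 130.3 and 138.5 CPM in Sucrose. Its log2 fold change was -1.36 ± 0.081 (SE, adjusted p = 2.34e-06, edgeR), which left 38.9% of the Sucrose level. The protein is known to restrain splicing of its own RPL22B transcript.

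RPL14B had 208.4, 232.1 and 236.0 CPM in NoSucrose and 535.8, 523.6 and 560.9 CPM in Sucrose, a log2 fold change of -1.26 ± 0.062 (SE). Its copy RPL14A had 615.3, 694.2 and 733.4 CPM in NoSucrose and 1478, 1491 and 1538 CPM in Sucrose, a change of -1.14 ± 0.069. RPL14 was the only pair in which both copies were called lower.

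RPL17B, which encodes a protein at the exit of the peptide tunnel, had 487.2, 541.0 and 555.8 CPM in NoSucrose and 1141, 1158 and 1171 CPM in Sucrose (log2 fold change -1.13 ± 0.059). RPL23A, whose product lies at the subunit interface, had 429.8, 487.4 and 498.4 CPM in NoSucrose and 1003, 1008 and 1047 CPM in Sucrose (-1.11 ± 0.065). The other called members were RPL35B (-1.10), RPL7B (-1.08), RPL31B (-1.07), RPL13A (-1.06), RPL6B (-1.03), RPL26B (-1.02) and RPL20B (-1.01). The first gene past the fold threshold was thus RPL20B, at 49.6% of its Sucrose level, and the nearest outside it was RPL33B (-0.995), at 50.2%. RPL20B and RPL33B differed by less than their standard errors. Of the 12 called, 9 were B copies and 3 were A copies (RPL14A, RPL23A and RPL13A). For RPL35B and RPL7B the split of counts between copies is uncertain, as described below. With both copies summed, RPL35 changed by -0.92 and RPL7 by -0.90.

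At the other end stood RPL15B. It had 64.5, 69.8 and 69.0 CPM in NoSucrose, against 56.4, 59.3 and 59.5 CPM in Sucrose. The groups did not overlap, and the log2 fold change was 0.21 ± 0.044 (SE, adjusted p = 0.00235, edgeR). It was higher under each of the other scalings run too, between 0.19 and 0.33.

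RPL3 encodes a protein that reaches towards the peptidyl transferase centre. It had 5128, 5611 and 5417 CPM in NoSucrose and 6204, 6410 and 6615 CPM in Sucrose, a log2 fold change of -0.25 ± 0.052 (SE, adjusted p = 0.00247, edgeR). RPL41B, which encodes one of the shortest proteins of the cell at a bridge to the small subunit, had 333.4, 392.6 and 371.3 CPM in NoSucrose and 432.5, 419.6 and 457.3 CPM in Sucrose (-0.26 ± 0.070). This was the highest adjusted p of the members, at 0.00985, and with library size as the only scaling it was 0.0987. The other members with small falls were RPL4A (-0.27), whose product lines the tunnel, and RPL41A (-0.43).

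The stalk genes fell less than the members' median, apart from RPP1B. RPP0, the base on which the stalk is built, had 2795, 3147 and 3012 CPM in NoSucrose and 4100, 4128 and 4153 CPM in Sucrose, a log2 fold change of -0.47 ± 0.054 (SE). The acidic proteins bind it as P1 and P2 heterodimers. RPP1A had 865.9, 963.1 and 964.9 CPM in NoSucrose and 1336, 1373 and 1412 CPM in Sucrose (-0.56 ± 0.057). RPP1B had 636.4, 704.9 and 715.8 CPM in NoSucrose and 1279, 1318 and 1307 CPM in Sucrose (-0.92 ± 0.056).

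Among the P2 genes the change was close to that of RPP1A. RPP2A had 786.2, 856.2 and 858.8 CPM in NoSucrose and 1215, 1265 and 1270 CPM in Sucrose (-0.58 ± 0.052). RPP2B had 1142, 1254 and 1294 CPM in NoSucrose and 1797, 1803 and 1798 CPM in Sucrose (-0.55 ± 0.056). RPL12A and RPL12B encode the protein beside the stalk base, and their log2 fold changes were -0.93 and -0.90. None of these 7 genes reached a 2-fold change, where 6.03% of all tested genes were called lower. All 7 were lower at an adjusted p below 0.05, as were 39.8% of all tested genes.

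**Figure D2:**
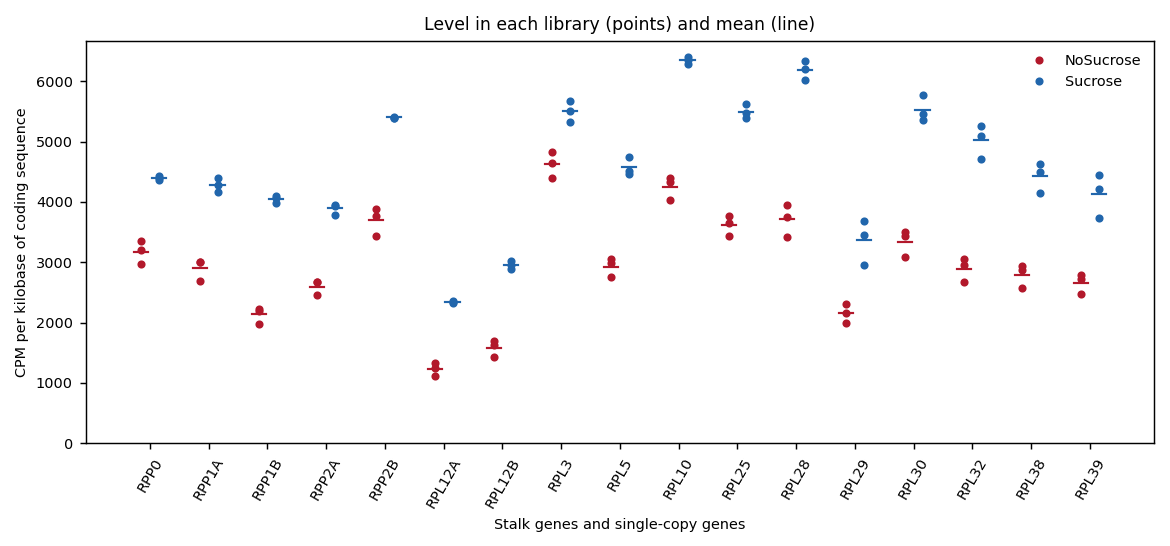
CPM per kilobase of coding sequence (vertical axis, from 0) in each library for the 5 P-protein genes, RPL12A, RPL12B and the other single-copy genes, with NoSucrose left of Sucrose and a line at each mean. In every gene the 3 NoSucrose points lie below the 3 Sucrose points, and RPL3 shows the smallest gap for its height.

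The 11 genes with a single copy had a median log2 fold change of -0.64. Of them 0 were called lower, against 6.03% of all tested genes. The medians of the A and B copies were both -0.84, with 3 of 35 A copies and 9 of 35 B copies called, against the same 6.03%. Besides RPL3 and RPP0, the single-copy genes lay close together. RPL10, whose product completes the subunit late in the cytoplasm, had 2689, 2880 and 2931 CPM in NoSucrose and 4228, 4184 and 4269 CPM in Sucrose (-0.58 ± 0.049). RPL25, which encodes a docking site at the tunnel exit, changed by -0.60, and RPL5, the carrier of 5S rRNA, by -0.64.

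RPL28, the gene in which cycloheximide resistance mutations are known, changed by -0.74. RPL30, whose protein is known to block splicing of its own transcript, changed by -0.73. RPL29 changed by -0.64, RPL32 by -0.79, RPL38 by -0.67 and RPL39, which encodes a very short protein in the tunnel, by -0.64. These 9 genes spanned -0.79 to -0.58, with standard errors of 0.049 to 0.091.

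By position in the subunit, the 12 genes of the polypeptide exit site had the lowest median log2 fold change of the groups listed, -0.90, with 4 called lower (RPL17B, RPL35B, RPL31B and RPL26B). The 9 genes around the peptidyl transferase centre, the tunnel wall and the tRNA sites had a median of -0.63 with 0 called, and ran from RPL42A at -0.92 to RPL3 at -0.25. The 9 bridge genes had a median of -0.79, the stalk and its base -0.58, the 5S particle genes RPL5, RPL11A and RPL11B -0.69, the L1 stalk genes -0.68 and the ubiquitin fusions RPL40A and RPL40B -0.79. Every gene in these groups was lower at an adjusted p below 0.05. Of all tested genes, 6.03% were called lower and 39.8% were lower by adjusted p alone. The groups are small, share genes and were not tested against each other. They also differ in introns. All 12 exit site genes have an intron in the coding region, while RPL3, RPL4A, RPL4B and RPL10 near the peptidyl transferase centre have none. Position and intron cannot be told apart for the exit site.

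The members were also split by introns, which the name rule did not use. All 12 called genes were among the 53 members with an intron in the coding region of the R64 annotation, and 0 were among the 28 without. Of all tested genes, 6.03% were called lower. The median log2 fold change was -0.88 with an intron and -0.62 without. Members with an intron ran from -1.36 to -0.57, and those without ran from -0.96 to 0.21. The single-copy genes with an intron were RPL25 (-0.60), RPL28 (-0.74), RPL30 (-0.73) and RPL39 (-0.64), all above the intron median. The other single-copy genes had no intron, so introns and copy number are not separate in this split. The median levels in Sucrose were close, at 3401 and 3603 CPM per kilobase.

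Small subunit genes had medians of -0.95 with an intron (11 of 36 called lower) and -0.78 without (4 of 20 called). Other tested genes had medians of -0.0036 with an intron (n = 153, 6 called lower) and 0.05 without (n = 4698, 268 called lower). RPP1 was the only large subunit pair with an intron in 1 copy alone, RPP1B, and that copy had the lower value (-0.92 against -0.56 for RPP1A). The counts were made per transcript, so unspliced RNA was not measured separately, and the part of introns in these differences was not tested.

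**Figure D3:**
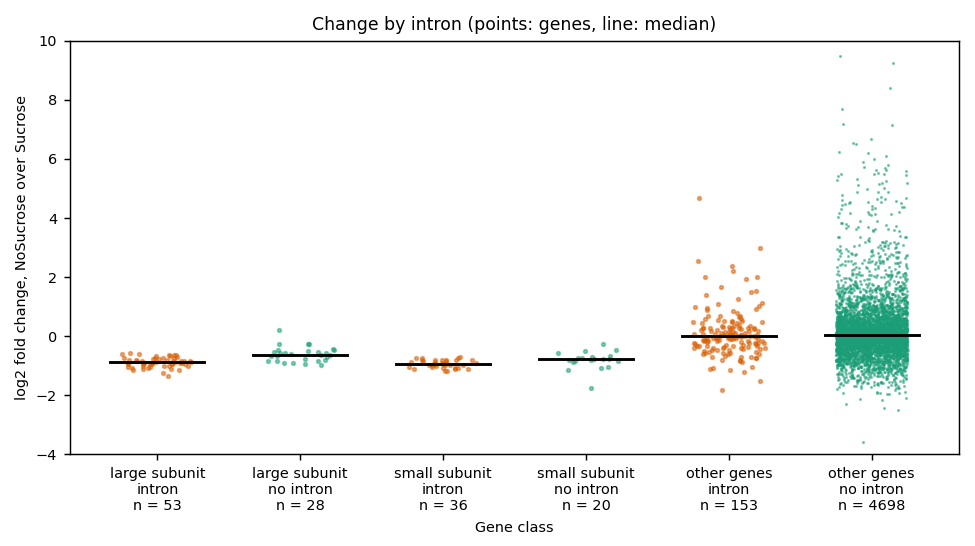
Log2 fold change (vertical axis, NoSucrose over Sucrose) of single genes, grouped by subunit and by an intron in the coding region, with a line at each median. The large subunit medians are -0.88 with an intron and -0.62 without, the small subunit medians are -0.95 and -0.78, and the medians of other genes matched to the reference lie near 0 in both classes.

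The A and B copies of each pair were compared within each library, so that library scaling plays no part. In Sucrose the A copy was the more abundant per kilobase in 18 of the 35 large subunit pairs and the B copy in 15, with 2 pairs past no threshold (RPL34 and RPL24). This is limma's test on the log2 ratio over 61 A/B pairs of the table, of which 95.1% passed. The 61 comprised these 35 pairs, 24 small subunit pairs and 2 other pairs. The copies were over 2-fold apart in 11 large subunit pairs. RPL15A stood 28.2-fold above RPL15B in NoSucrose and 45.9-fold in Sucrose. RPL22A stood 15.4-fold above RPL22B in NoSucrose and 10.7-fold in Sucrose, and RPL7A stood 8.24-fold above RPL7B in NoSucrose and 7.10-fold in Sucrose. The B copy led most in RPL36, by 3.55-fold in NoSucrose and 3.41-fold in Sucrose. In RPL8 it led by 2.40-fold in NoSucrose and 2.20-fold in Sucrose, and in RPL13 by 2.69-fold in NoSucrose and 1.96-fold in Sucrose.

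The ratio of A to B differed between the conditions in 25 of 35 large subunit pairs by limma at an adjusted p below 0.05, against 73.8% of all 61 A/B pairs. The 61 include the large subunit pairs themselves, and only 2 lie outside the ribosomal protein genes. The ratio moved towards the A copy in 15 large subunit pairs and towards the B copy in 10. The libraries of the conditions did not overlap in 26 of 35, against 77% of all pairs. The shifts were small, with a median absolute difference of 0.14 on the log2 scale, and 0.16 in the 24 small subunit pairs, of which 18 passed. An exact permutation test of 3 against 3 libraries cannot give a two-sided p below 0.1.

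**Figure D4:**
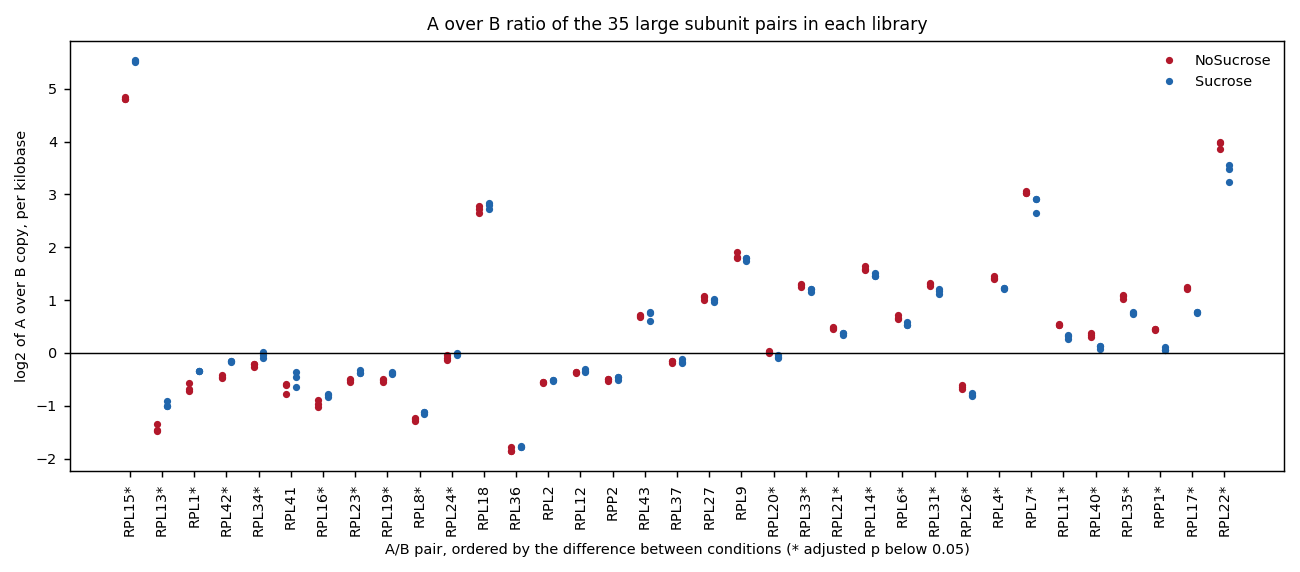
Log2 ratio of the A to the B copy per kilobase (vertical axis) in each library for the 35 large subunit pairs, NoSucrose left of Sucrose, ordered by the difference between conditions from RPL15 (-0.71) to RPL22 (0.52). For most pairs the distance between copies is far larger than the shift between conditions, and RPL15, RPL22, RPL7 and RPL18 stand above the rest.

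In 2 pairs, RPL15 and RPL22, the shift exceeded 0.5, and for RPL22 it was 0.42 without Sucrose replicate 1 and 0.495 without NoSucrose replicate 1. The log2 ratio of RPL15A to RPL15B was 4.81, 4.797 and 4.84 in NoSucrose and 5.54, 5.51 and 5.52 in Sucrose, a difference of -0.71 ± 0.021 (SE, adjusted p = 1.39e-06, limma). RPL15A itself fell, with 1813, 1940 and 1975 CPM in NoSucrose and 2624, 2700 and 2727 CPM in Sucrose, while RPL15B was higher. For RPL22 the log2 ratio was 3.99, 3.86 and 3.97 in NoSucrose and 3.23, 3.55 and 3.48 in Sucrose, a difference of 0.52 ± 0.087 (adjusted p = 0.00198). Both RPL22 copies fell, RPL22A by less (-0.84) than RPL22B (-1.36).

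The RPL17 ratio was 1.25, 1.24 and 1.21 in NoSucrose and 0.77, 0.75 and 0.77 in Sucrose, a difference of 0.47 ± 0.021 (adjusted p = 7.50e-06, limma). The RPL13 ratio was -1.46, -1.48 and -1.34 in NoSucrose and -0.91, -0.997 and -1.01 in Sucrose, a difference of -0.45 ± 0.047 (adjusted p = 0.000255). RPP1 followed at 0.36 ± 0.022, with ratios of 0.44, 0.45 and 0.43 in NoSucrose and 0.06, 0.06 and 0.11 in Sucrose. In these 3 pairs the less abundant copy fell further.

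That order was common among large subunit pairs. The copy that was less abundant in Sucrose had the lower log2 fold change in 30 of 35 pairs, and in 22 of the 25 pairs past the threshold. In 5 pairs, RPL15 among them, the ratio moved towards 1. The same order was found in 14 of 24 small subunit pairs. The Sucrose libraries enter both the level and the change, so these counts are a description. In 1 pair, RPL20, the leading copy changed sides, with A to B folds of 1.01 in NoSucrose and 0.949 in Sucrose.

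In 10 pairs the difference in response did not pass the threshold (RPL2, RPL9, RPL12, RPL18, RPL27, RPL36, RPL37, RPL41, RPL43 and RPP2). Their 95% intervals lay between -0.38 and 0.15 on the log2 scale, and 1 of them had an unadjusted p below 0.05. RPL41 had the widest interval, -0.38 to 0.03, and its coding sequence is only 78 bases long.

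How far reads can separate the copies varied between pairs. The share of 50-base coding windows of the shorter copy that were also found in the other copy was above 50% in 6 pairs, namely RPL1 (81.0%), RPL35 (80.6%), RPL4 (72.7%), RPL41 (69.0%), RPL11 (60.9%) and RPL7 (56.9%), and the split of their counts between copies is uncertain. In the other 29 pairs the response differed in 20. In the 10 pairs with no shared window, RPL22 among them, it differed in 7, and the less abundant copy fell more in 9. RPL15 shared 11.8% of its windows. The introns of RPL7A and RPL7B also hold the small nucleolar RNAs SNR39 and SNR59 on the same strand.

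When the counts of both copies were added before the fit, 46 single-copy genes or pairs remained as large subunit features. All were lower at an adjusted p below 0.05. Only RPL14 (-1.18 ± 0.067) and RPL23 (-1.03 ± 0.060) then passed the 2-fold limit, where 5.84% of all features did. The median log2 fold change was -0.80 and the values ran from -1.18 to -0.26. The sum for RPL14 was 819.4, 922.3 and 965.9 CPM in NoSucrose and 2024, 2019 and 2111 CPM in Sucrose.

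The 500 bases before each start codon were searched on both strands for letters known from ribosomal protein promoters. A degenerate form of the Rap1 consensus, shown in capitals below, was present before 35 of 81 members (43.2%) and before 6.0% of 6000 genes. The Abf1 consensus was present before 12 members (14.8%) and before 22.7% of all genes, and the RRPE letters AAAATTTT before 13 members (16.05%) and 12.4% of all genes. The Rap1 form was chosen after a stricter spelling had found fewer members. None of the 3 spellings contains another, and a match is not a binding site.

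The stretches below hold the Rap1 letters in capitals, written on the strand given. They come from the member that fell most, its other copy, RPL14A and RPP1B, and from RPP0 and RPL41B, which fell less than the members' median.
RPL22B: catgtcaaCACCCGTACAtattcaga
RPL22A: taataataCATCCATACAtttatgtt
RPL14A: cgcaaataCACCCATACActattttt
RPP1B: acacaaaaCATCCGTACAtcagaagg
RPP0: ctgcttaaCATCCGAACAtttcacat
RPL41B: ggttaccaCACCCGTACAcccttatc

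They lie upstream of the coding regions at VI:65161-65186 (RPL22B, minus), XII:262958-262983 (RPL22A, plus), XI:431487-431512 (RPL14A, plus), IV:229647-229672 (RPP1B, plus), XII:805616-805641 (RPP0, plus) and IV:222129-222154 (RPL41B, minus). The 40 matches found lay 163 to 452 bases before the start codon. Members with the Rap1 letters had a median log2 fold change of -0.86 and those without -0.77. In 13 pairs only 1 copy held the letters, and that copy fell more in 6 of them. With the RRPE letters, a sequence known from ribosome assembly genes, the members' median was -0.58 and without them -0.84.

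Genes that act on the large subunit genes and proteins moved unequally. The counts of each list stand beside 6.03% of all tested genes called lower and 12.7% called higher, and 39.8% lower and 42.2% higher by adjusted p alone. Of the 7 regulators of ribosomal protein gene transcription, IFH1, the coactivator that Fhl1 recruits, had 70.3, 70.7 and 68.4 CPM in NoSucrose and 195.4, 194.5 and 193.4 CPM in Sucrose (log2 fold change -1.48 ± 0.038, adjusted p = 8.37e-08, edgeR). CRF1, which encodes a corepressor known to compete with Ifh1, had 19.4, 17.7 and 18.0 CPM in NoSucrose and 4.05, 3.55 and 3.75 CPM in Sucrose (2.28 ± 0.092, adjusted p = 3.98e-07). The replicates of both genes were tight and far apart between conditions. RAP1 (-0.62), ABF1 (-0.25) and FHL1 (-0.17) were lower and SFP1 (0.18) higher at an adjusted p below 0.05 without reaching a 2-fold change. HMO1, at -0.01 (adjusted p = 0.833), passed no threshold.

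The 7 dedicated chaperones, which escort new large subunit proteins to the nucleus or to the assembling particle, were all lower at an adjusted p below 0.05, with a median of -0.92. The 3 called were SYO1 (-1.24), the importer of Rpl5 and Rpl11, PUF6, which acts on Rpl43, and SQT1, which protects Rpl10, and the smallest fall was in BCP1 (-0.78), the chaperone of Rpl23. Of the 6 placeholders and loading factors, 5 were called lower, from RLP24 (-1.45), the placeholder of Rpl24. YVH1 (-0.94), which releases the Rpp0 placeholder Mrt4, passed the adjusted p and not the fold.

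Of the 7 methyltransferases of large subunit proteins, 0 were called. At an adjusted p below 0.05, 4 were lower, with HPM1 (-0.78), which modifies a histidine of Rpl3, the lowest, and RKM5 (0.44) was higher. RKM1 (-0.08) and RKM4 (-0.06) passed no threshold. The 9 genes of elongation factors were all lower at an adjusted p below 0.05, from TEF4 (-1.03), the 1 called, to CAM1 (-0.16).

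**Figure D5:**
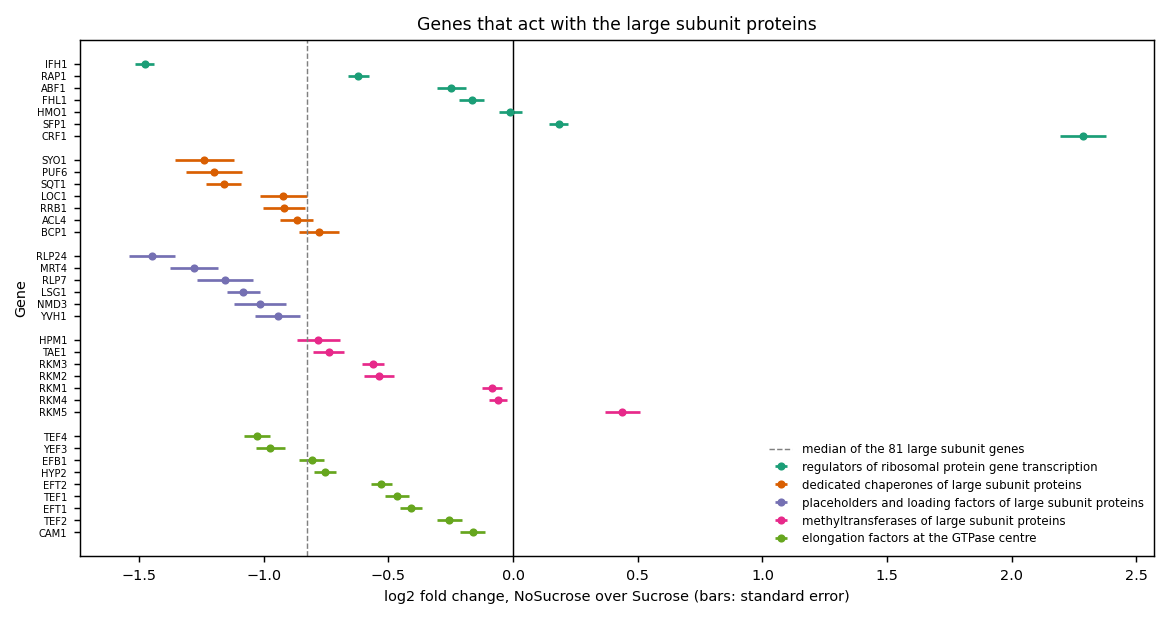
Log2 fold change (horizontal axis, NoSucrose over Sucrose) with its standard error for 36 genes in 5 lists, with the large subunit median as a dashed line. All 6 placeholders and 6 of 7 chaperones lie left of the dashed line, while regulators spread from IFH1 at -1.48 to CRF1 at 2.28.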

How the data were processed

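Polyadenylated RNA of 6 libraries (3 NoSucrose, 3 Sucrose) was sequenced as 50-base read pairs with a strand-specific kit. After trimming with Flexbar and quantification with Salmon on an R64-1-1 transcriptome with decoys, the authors deposited estimated counts (expected counts, not normalized) for 5113 genes and for 5028 after their filter. In the filtered table the names do not stand beside their values, with 6 rows correctly named. Rows were renamed through the unfiltered table, by the gene that holds those 6 values in any order, and all 5028 matched exactly 1 gene. The filtered headers were used, since they gave values identical to 6 significant digits for all 1999 genes of a shortened published table, while the unfiltered headers named another library in 4 of 6. Another 85 genes, absent after the filter, were not analysed here.

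Counts were rounded, filtered (filterByExpr, min.count 15, min.total.count 20) and tested in edgeR 4.0.16 (R 4.3.3) with TMM factors and condition as the only term. Benjamini-Hochberg adjustment covered all 5011 genes, with thresholds of 0.05 and 2-fold. The SE was taken as the size of the log2 fold change over the square root of F. The log2 ratio of copies (0.5 added to each count) was fitted with limma 3.58.1 over 61 pairs. Libraries held 25106494 to 33651822 counts and each member at least 1342. Over all tested genes, replicates differed by more than counting error in both conditions. Members were not compared alone, and some hardly varied, such as RPP2B in Sucrose (1799 ± 3.4 CPM, SD). On simulated counts for this comparison (5003 genes) the fit recovered 199 of 199 changed genes with 0 false calls. The changed genes were all simulated well past the 2-fold threshold and the others unchanged, so calls close to the threshold were not tried. All 81 members matched the R64 RefSeq annotation by symbol.

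Members and lists were chosen with earlier results of these data known. Genes named are the 5 lowest and 5 highest, single-copy genes, the stalk, those at the fold threshold, the most and least abundant, the 5 pairs with the largest shifts, the 3 highest and lowest A to B ratios, and list extremes. A few others were named after their values were seen. Alternatives were other scalings, DESeq2 1.42.0, no filter, other pseudocounts, summed copies, a replicate block and leaving out each library.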

Additional observations from a re-analysis of the deposited data

How the results depend on the processing

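With library size as the only scaling, 4 members were called lower in place of 12, and their median log2 fold change was -0.71. This scaling moved the median of all tested genes to 0.14, with 733 genes called higher and 201 lower against 635 and 302. A change of scaling shifts all genes by nearly the same amount. The members' median relative to all genes, -0.85 under each of the scalings run, could therefore hardly differ between them. With the adjusted p alone, 79 members were lower with library size as the only scaling, and 80 lower and 1 higher with TMM factors. With copies summed, 4.35% of large subunit features were called lower, where 5.84% of all features were. Without summing, 14.8% of large subunit genes were called lower, where 6.03% of all tested genes were. The share of large subunit counts in NoSucrose over Sucrose was 0.605 against the counts of other genes and 0.662 against all counts. Leaving out each library in turn gave 8 (without NoSucrose replicate 1) to 15 (without NoSucrose replicate 3) called lower, 0 higher, 80 lower by adjusted p alone, medians of -0.85 to -0.78, and 22 to 25 pairs differing in response. The RPL7 ratio lost its call without any single NoSucrose library (adjusted p 0.0641 to 0.0938), and RPL36 gained one without NoSucrose replicate 3 (adjusted p = 0.00923). No direction reversed in the results and alternatives run.

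The replicate numbers are not stated to pair the samples. Of the same-numbered pairs, 0 of 3 correlated above 0.1, but 3 correlations cannot show that the samples were unpaired. With the replicate block, 12 members were called lower with a median of -0.83, 24 pairs differed in response, and 933 genes were called in place of 937. Counts of near-identical copies rest on few distinguishing positions, and 3 libraries a group limit the ratio tests.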
